A study of Mus musculus with 6 samples.

Results

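The nuclei described here are cerebellar neurons selected on *Nxph1*, the gene for the secreted neurexin ligand neurexophilin 1, which marks type 2 molecular layer interneurons (MLI2). A nucleus was taken where its deposited cell type label named no granule neuron, Purkinje cell, glial, vascular or ependymal type, and where it held at least 2 *Nxph1* unique molecular identifiers (UMIs), more *Nxph1* than *Sorcs3* UMIs and fewer than 2 *Eomes* UMIs. This gave 912 *Nxph1*+ nuclei of 45473 nuclei in all. The deposited labels are written as marker genes, so that granule neurons (label *Slc17a7.Gabra6*), Purkinje cells (*Gad1Gad2.Pcp2*) and astroglia (*Gja1*) had to be recognised by those genes. Where the exclusion words were matched as written instead, 1336 nuclei passed, of which 378 carried the granule neuron label with a median of 3 *Nxph1* UMIs. The 912 nuclei are used throughout.

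Molecular layer interneurons are the GABAergic stellate and basket cells that inhibit Purkinje cells and one another. A first type, marked by *Sorcs3*, is coupled by gap junctions, and the second, marked by *Nxph1*, is largely not. Neurexophilins bind alpha-neurexins on the presynaptic membrane, and *Cdh22* encodes a cadherin, a calcium-dependent adhesion molecule that has been used with *Nxph1* to mark the second type.

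Nuclei were isolated from whole cerebella of 3 SCA1 mice and 3 wild-type (WT) mice aged 12 weeks, with 1 library per mouse. The SCA1 mice carried the *Pcp2-ATXN1[82Q]* transgene, in which Purkinje cells express expanded human *ATXN1* from the *Pcp2* promoter. The line had been backcrossed to C57BL/6, and the WT mice (C57Bl6 in the labels) were littermates. Libraries held 18916647 to 98366627 UMIs, and library numbers placed mouse 1 of each genotype in batch 1 and the remaining mice in batch 2. Y-linked transcripts were present in the nuclei of all 6 mice, and *Xist* stood between 0 and 0.795 CPM, UMI counts per 1000000. Human *ATXN1* was found in 3 of 516 *Nxph1*+ nuclei of SCA1 mice (0.581%) and in 3 of 396 of WT mice (0.758%), against 31 of 141 Purkinje nuclei of SCA1 mice (22.0%). Granule neurons had 0.554% in SCA1 and 0.328% in WT mice. The share in *Nxph1*+ nuclei of SCA1 mice was thus not above that in WT mice, whose genome lacks the transgene.

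SCA1 mice 1, 2 and 3 contributed 284, 109 and 123 *Nxph1*+ nuclei, and WT mice 1, 2 and 3 contributed 210, 118 and 68. The SCA1 mice had median depths of 15535.5, 9634 and 16846 UMIs per nucleus, against 14576, 5331.5 and 15122 UMIs for WT. WT mouse 2 was the shallowest, and 20 of its 118 nuclei held under 3000 UMIs. The selection left a wide margin for most nuclei: *Nxph1* had a median of 30 UMIs per nucleus and reached 494, and 706 nuclei had no *Sorcs3* UMI. Just inside the limit, 45 nuclei had 2 or 3 *Nxph1* UMIs, and 44.4% of them had a *Cdh22* UMI and 62.2% a *Gad1* UMI. Just outside, 29 nuclei with 1 *Nxph1* UMI and no *Sorcs3* had *Cdh22* in 51.7% and *Gad1* in 58.6%. No doublet caller was run, and 43 nuclei held over 3 times the median UMIs of their mouse. Of the nuclei, 15 had a barcode that also occurred in another library, none of them among the *Nxph1*+ nuclei of that library.

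The level of *Nxph1*, which the selection fixed as high, was 1978, 2823 and 3791 CPM in the summed *Nxph1*+ nuclei of SCA1 mice 1, 2 and 3 and 1831, 3203 and 4021 CPM in those of WT mice. It was lowest in both mice of batch 1. *Sorcs3* stood at 43.8 to 80.7 CPM and *Eomes* at 0 to 2.76 CPM. *Cdh22*, which the selection did not read, was at 322, 293 and 247 CPM in the SCA1 mice and at 355, 355 and 352 CPM in the WT mice. In nuclei with *Sorcs3* as the higher gene it was at 7.01 to 41.6 CPM, so that no mouse overlapped between the kinds of nuclei. *Cdh22* was not particular to interneurons: it averaged 296 CPM in Bergmann glia and 58.3 CPM in velate astrocytes, against 321 CPM in *Nxph1*+ nuclei. A *Cdh22* UMI was found in 78.8% of *Nxph1*+ nuclei (68.6 to 84.4% by mouse), in 22.1% of *Sorcs3* nuclei and in 32.6% of granule neurons. These types had median depths of 13429, 12056 and 5897 UMIs, and with every nucleus thinned to 3000 UMIs, leaving out 23, 62 and 5679 shallower nuclei, the shares were 55.0%, 5.64% and 19.6%.

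The promoters of both marker genes are shown because *Nxph1* defined the nuclei and *Cdh22* is the marker that set them apart from *Sorcs3* nuclei. Each window is 300 bases on GRCm38.p6 (mm10) from RefSeq, with 250 bases before the transcription start. The *Nxph1* window lies on the plus strand at chr6:8949769-8950068 and the *Cdh22* window on the minus strand at chr2:165234688-165234987. Both strands were searched for GCCNNNGGC, the palindrome bound by TFAP2 factors, and for CAGCTG, an E-box, and a match is in capitals.
Nxph1: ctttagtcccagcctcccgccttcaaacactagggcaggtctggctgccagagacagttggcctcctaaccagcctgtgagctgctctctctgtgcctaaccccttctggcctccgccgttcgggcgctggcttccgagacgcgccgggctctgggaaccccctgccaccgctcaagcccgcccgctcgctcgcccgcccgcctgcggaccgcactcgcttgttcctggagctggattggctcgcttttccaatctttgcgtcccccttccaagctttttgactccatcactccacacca
Cdh22: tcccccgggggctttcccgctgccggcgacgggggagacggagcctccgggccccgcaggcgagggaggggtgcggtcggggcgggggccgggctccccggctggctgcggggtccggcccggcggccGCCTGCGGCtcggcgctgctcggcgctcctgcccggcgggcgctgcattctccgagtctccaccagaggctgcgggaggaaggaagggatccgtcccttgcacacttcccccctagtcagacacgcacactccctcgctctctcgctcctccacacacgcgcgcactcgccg
The *Cdh22* window held GCCNNNGGC once and the *Nxph1* window neither motif. Of 32851 promoter windows of this length, 16.6% held GCCNNNGGC and 16.3% held CAGCTG. *Tfap2b*, a TFAP2 factor of molecular layer interneurons, was found in 54.6% of *Nxph1*+ nuclei and in 67.2% of *Sorcs3* nuclei. Among *Nxph1*+ nuclei it was at 275, 299 and 144 CPM under the *Cadm1*, *Rab3b* and *Nefh* labels, at 159 CPM under the *Lgi2* label and at 37.5 and 30.8 CPM under the *Chrm2* and *Nrgn* labels.

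The nuclei had the transcripts of GABAergic neurons. *Gad1*, which encodes a GABA-synthesising enzyme, had a UMI in 79.9% of them and *Gad2*, its paralogue, in 77.7%, against 33.2% and 17.5% of granule neurons. Thinned to 3000 UMIs, the shares were 38.9 and 47.8%, against 20.6 and 10.0%. *Slc32a1*, the vesicular GABA transporter, was found in 63.0%, against 15.8% of granule neurons. *Kit*, a receptor tyrosine kinase of molecular layer interneurons, was found in 73.7% and in 10.9% of granule neurons. *Sorcs3* nuclei had *Kit* in 86.4%, *Gad1* in 82.8%, *Gad2* in 71.5% and *Slc32a1* in 62.4%. *Pvalb* was found in 88.6% of *Nxph1*+ nuclei and in 65.8% of granule neurons, but in 52.6 and 51.4% once thinned. Markers of Golgi and Purkinje layer interneurons were also present, with *Klhl1* in 33.0%, *Lgi2* in 42.5% and the glycine transporter *Slc6a5* in 13.8% of nuclei, against 1.70%, 11.6% and 2.04% of granule neurons. In *Sorcs3* nuclei the shares were 15.3%, 33.3% and 8.50%. After thinning, *Nxph1*+ nuclei had 19.6%, 16.8% and 5.51%, and *Sorcs3* nuclei 8.29%, 13.7% and 3.63%. Of the 6 markers listed for Golgi and Purkinje layer interneurons, *Grm2* alone was less frequent in *Nxph1*+ than in *Sorcs3* nuclei. Its shares were 1.57 and 2.44% after thinning, and their order was the same before thinning.

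Transcripts that mark other cell types were also found in these nuclei, and how they came to be there was not tested. *Pcp2*, a Purkinje cell transcript, had a UMI in 70.6% of *Nxph1*+ nuclei and in 65.6% of the shallower granule neurons, but in 32.1 and 51.4% once thinned to 3000 UMIs. *Gabra6*, a granule neuron receptor subunit, was found in 51.4 and 93.3%, and in 20.2 and 84.7% after thinning. Summed over all 5 Purkinje markers, each of them detected, *Nxph1*+ nuclei had 211 to 540 CPM in SCA1 mice and 359 to 1026 CPM in WT mice, with granule neurons at 274 to 2044 CPM. The 5 granule neuron markers summed to 117 to 338 CPM in SCA1 and 107 to 363 CPM in WT mice, against 1542 to 1995 CPM in granule neurons. Markers of Bergmann glia and astrocytes summed to 85.7 to 239 and 115 to 285 CPM, those of oligodendrocytes and precursors to 67.5 to 239 and 80.1 to 308 CPM, and those of microglia and vessels to 13.0 to 18.8 and 6.91 to 17.0 CPM.

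The deposited labels, which the authors took from a reference atlas of the cerebellum, divided the nuclei into 7 groups. For 492 of the 912 nuclei the label was the most frequent one of their cluster. The authors assigned cell types only where cluster and label agreed. That was asked here of granule, Purkinje and glial nuclei, but not of *Nxph1*+ or *Sorcs3* nuclei. The 4 labels of the *Pvalb* class held 283 (*Cadm1*), 233 (*Chrm2*), 88 (*Rab3b*) and 53 (*Nefh*) nuclei. The *Lgi2* label held 108 nuclei, the glutamatergic label *Slc17a6.Nrgn* 145 and the glutamatergic label *Slc17a6.Sln* 2. These nuclei were 97.9% of all nuclei with the *Cadm1* label and 88.6% of those with the *Chrm2* label, but 4.33% of those with the *Nefh* label. By mouse, the *Cadm1* label was on 20.1, 44.0 and 38.2% of *Nxph1*+ nuclei in SCA1 mice 1, 2 and 3 and on 19.0, 52.5 and 42.6% in WT mice. It was less frequent in both mice of batch 1 than in any mouse of batch 2. The *Lgi2* label ran the other way, with 14.8 to 15.8% in batch 1 and 3.67 to 11.4% in batch 2. No share of the 6 larger labels was shown to differ by genotype (two-sided exact permutation tests, p between 0.4 and 0.9, adjusted p between 0.8 and 0.9), in a design that cannot go below p = 0.1. These tests took no account of batch, so the spread between batches counts against any difference by genotype. For the *Nrgn* label the shares were 16.4% ± 4.44 in SCA1 and 12.1% ± 5.69 in WT mice (SD, n = 3, exact permutation p = 0.4), with the lowest value, 5.93%, in WT mouse 2.

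**Figure D1:**
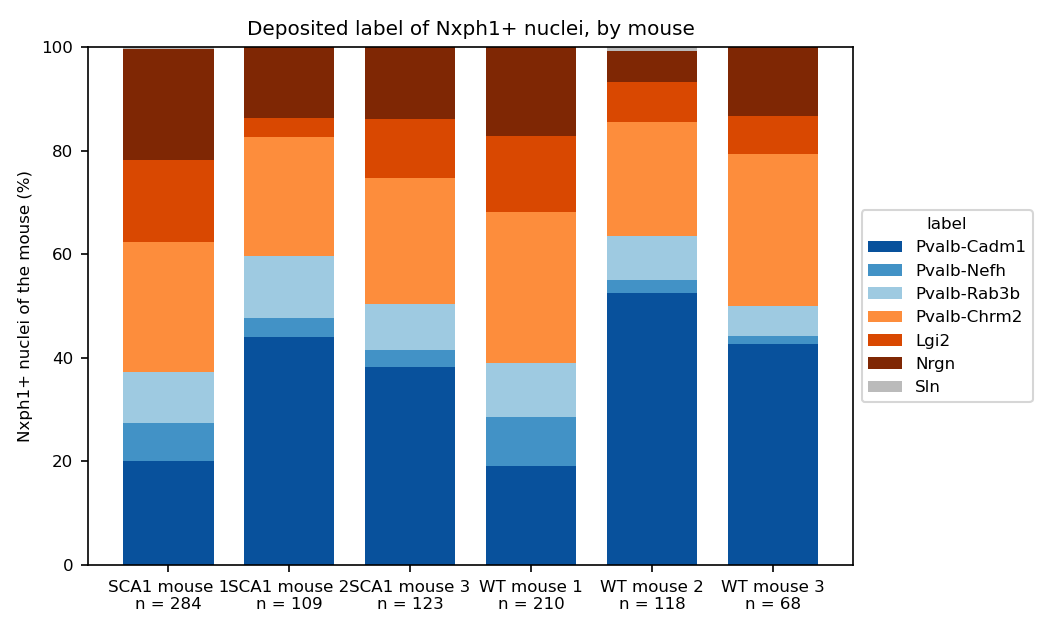
Percent of the Nxph1+ nuclei of each mouse (vertical axis) that carried each deposited label, with the number of nuclei under each bar. The Cadm1 label takes 19.0 and 20.1% in WT mouse 1 and SCA1 mouse 1 and 38.2 to 52.5% in the other mice, and the genotypes overlap for every label.

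Levels by label set the nuclei apart into kinds that the selection did not separate, and the name MLI2 holds for some of them only. In the sums over all mice, *Cdh22* was at 641, 639 and 619 CPM in nuclei with the *Cadm1*, *Rab3b* and *Nefh* labels, at 318 CPM under the *Chrm2* label, and at 85.8 and 54.2 CPM under the *Nrgn* and *Lgi2* labels. *Kit* was at 632, 600 and 479 CPM, then at 226 CPM, and at 39.6 and 43.1 CPM under the last labels. *Nxph1* itself was at 4704, 4025 and 3283 CPM, 2481 CPM, and 1107 and 1205 CPM, but the selection read this gene, so its level is no support for the division. The *Lgi2* label had the highest *Lgi2* (307 CPM) and *Slc6a5* (79.8 CPM), and the *Chrm2* label the highest *Klhl1* (316 CPM), genes known from Golgi and Purkinje layer interneurons. Under the *Nrgn* label *Slc17a6*, a vesicular glutamate transporter, was at 156 CPM and *Gad1* at 81.3 CPM, and *Foxp2* (546 CPM), *Tcf7l2* (250 CPM) and *Lhx9* (52.3 CPM), all transcription factors, were among the genes highest over the other labels. Since the labels were assigned from these same counts, the levels are a description.

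**Figure D2:**
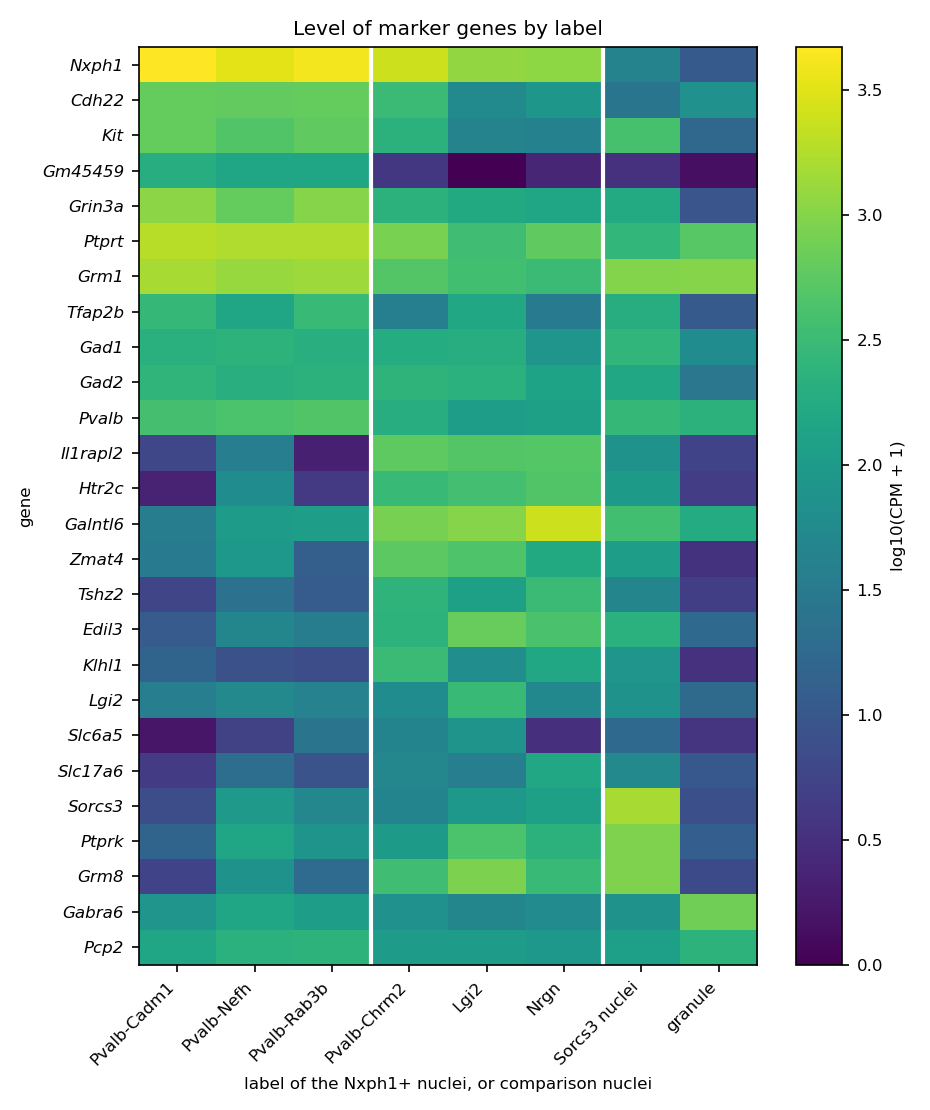
Level of marker and leading genes, as log10(CPM + 1) of UMIs summed over the mice (Sorcs3 nuclei and granule neurons: mean over the mice), in Nxph1+ nuclei by label, in Sorcs3 nuclei and in granule neurons. Cdh22, Kit, Gm45459 and Grin3a are highest under the Cadm1, Nefh and Rab3b labels, whereas Il1rapl2, Htr2c, Galntl6 and Edil3 are highest under the Chrm2, Lgi2 and Nrgn labels.

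Because of this pattern the nuclei were set in a pair of groups, 424 with the *Cadm1*, *Nefh* or *Rab3b* label (*Kit*-high nuclei) and 488 with any other label. This grouping and the genes named for it were chosen after the levels by label were seen, and no test was made. *Rora*, a nuclear receptor of Purkinje cells and molecular layer interneurons, was at 14122, 12253 and 17966 CPM in *Kit*-high nuclei of SCA1 mice 1, 2 and 3 and at 13384, 12836 and 19271 CPM in those of WT mice. In the other nuclei it was at 2164, 2082 and 2661 CPM in SCA1 and at 2036, 1944 and 3856 CPM in WT mice. *Sorcs3* nuclei, which were not divided by label here, stood at 11749 CPM on average and granule neurons at 2107 CPM. By *Rora* the *Kit*-high nuclei were thus closer to the *Sorcs3* nuclei, and the other nuclei to granule neurons. Not every gene gave this placing, and *Lingo2* and *Grm7*, below, gave the opposite one for *Sorcs3* nuclei. *Kit* was at 559 to 819 CPM in *Kit*-high nuclei and at 93.7 to 284 CPM in the others, and *Cdh22* at 422 to 826 and 144 to 246 CPM. The ranges overlapped for neither gene. The groups were formed after the levels of these genes by label were seen, so this is no support for the grouping. *Nxph1*, which the selection read and which is likewise no support, was at 3323 to 6400 and 1317 to 3068 CPM. *Gad2* did not separate the groups, with 213 to 251 CPM in *Kit*-high nuclei and 152 to 285 CPM in the others.

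Several genes of the other 488 nuclei were low in *Kit*-high nuclei, while others, such as *Kcnip4* (1700 CPM in *Kit*-high nuclei and 5063 CPM in the others) and *Fgf12* (861 and 1831 CPM), were abundant in both groups. *Lingo2*, a leucine-rich repeat membrane protein, was at 2405, 1514 and 2622 CPM in the other nuclei of SCA1 mice and at 2045, 1386 and 2237 CPM in those of WT mice, against 0 to 120 CPM in *Kit*-high nuclei. *Sorcs3* nuclei had 1354 CPM of *Lingo2* on average. The mean log2 difference within a mouse was -7.09 (range -9.51 to -4.30, with 2 counts added). *Cntn5*, a contactin, *Nrg1*, a neuregulin that signals through ErbB receptors, *Robo2* and *Unc5d*, receptors for axon guidance cues, *Epha6*, an ephrin receptor, *Tenm3*, a teneurin, and *Grm7*, a metabotropic glutamate receptor, differed in the same direction in all 6 mice, with mean log2 differences of -6.96, -6.64, -5.89, -5.78, -5.87, -5.87 and -5.54. *Kcnc2*, a Kv3 potassium channel, had -5.73 and *Zfhx3*, a transcription factor, -5.63. *Grm7* was at 674 to 1401 CPM in the other nuclei and at 720 CPM on average in *Sorcs3* nuclei. By *Lingo2* and *Grm7* the *Sorcs3* nuclei thus lay nearer to the other nuclei than to *Kit*-high nuclei. In *Kit*-high nuclei *Lingo2* was at 120 and 59.1 CPM in SCA1 mouse 1 and WT mouse 1. It was at most 7.99 CPM in the other mice, whereas *Grm7* was at 12.7 to 26.5 CPM with no division by batch.

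Fewer genes ran the other way. Of 10698 genes at 10 CPM or more in either group, 154 were higher in *Kit*-high nuclei by over 1 on the log2 scale in every mouse and 454 were lower. *Gm45459*, an unnamed transcript on chromosome 8 (62646335 to 62855382, minus strand), was at 95.8 to 374 CPM in *Kit*-high nuclei and at 0 to 6.14 CPM in the others. *Prkcd*, a protein kinase C, was at 70.2 to 112 CPM against 0 to 9.90 CPM, and *Ntn1*, the guidance cue netrin 1, at 434 to 663 CPM against 52.9 to 117 CPM. *Jph1*, a junctophilin that ties the endoplasmic reticulum to the plasma membrane, was at 115 to 179 CPM against 17.2 to 25.8 CPM, and *Grin3a*, an NMDA receptor subunit, at 730 to 1519 CPM against 147 to 291 CPM. In single nuclei the division was partial, read by genes chosen after it was seen. Of the 912 nuclei, 502 (55.0%) had at least 2 *Grin3a* UMIs and under 2 UMIs of *Il1rapl2* and *Htr2c* together, and 91.8% of these had a *Kit* UMI. Conversely, 100 nuclei (11.0%) had at least 2 UMIs of *Il1rapl2* and *Htr2c* and under 2 of *Grin3a*, and 35.0% of these had a *Kit* UMI although their median depth was higher (21902 against 11693.5 UMIs). A further 137 nuclei had both and 173, with a median of 9919 UMIs, had neither. The *Kit*-high group held 367 of the 502 nuclei, 0 of the 100, 4 of the 137 and 53 of the 173.

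The leading genes of all *Nxph1*+ nuclei were those with the largest ratio of their level to that of the next highest of 7 other types, which were granule neurons, Purkinje cells, Bergmann glia, velate astrocytes, oligodendrocytes, *Sorcs3* nuclei and *Eomes* nuclei. *Gm45459* led with 78.2 CPM against 3.43 CPM, and *Il1rapl2*, a synaptic interleukin 1 receptor family member on chromosome X (137570608 to 138846946), followed with 304 against 74.0 CPM. *Col11a1*, a collagen chain, *Galnt14* and *Galntl6*, glycosyltransferases, *Tshz2* and *Zmat4*, zinc finger proteins, *Itga8*, an integrin chain, and *Htr2c*, a serotonin receptor, were 1.28 (*Htr2c*) to 1.66 (*Col11a1*) higher on the log2 scale than the next type. *Samd5*, *Gm15398*, *Ptprt*, *Gm9866*, *Grin3a* and *Miat* had 0.95 to 1.25. By label the leading genes fell on either side of the division. *Gm45459*, *Itga8*, *Ptprt*, *Samd5* and *Grin3a* were highest under a label of the *Kit*-high nuclei, whereas *Il1rapl2* (5.13 CPM under the *Cadm1* label and 568 CPM under the *Chrm2* label), *Htr2c* (1.28 and 301 CPM), *Tshz2* (4.81 and 242 CPM) and *Miat* (5.45 and 165 CPM) were close to absent from the largest label.

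The likest other nuclei were the 1907 nuclei chosen in the same way with *Sorcs3* as the higher gene. Both kinds were selected on *Nxph1* and *Sorcs3*, so the comparison is a description of log2 CPM differences within each mouse. Of 10362 genes at 10 CPM or more in either kind, 1463 (14.1%) were higher in *Nxph1*+ nuclei in all 6 mice and 930 (8.98%) lower, and 205 and 127 of these had a mean difference beyond 1. After *Gm45459* (4.77 ± 0.98, SD over 6 mice), the largest differences towards *Nxph1*+ nuclei were *Cdh22* (3.77 ± 0.85), *Sox2ot* (3.34 ± 1.20), *Samd5* (2.52 ± 0.46), the transcriptional cofactor *Lmo4* (2.41 ± 0.69), *Col11a1* (2.36 ± 0.82) and the kainate receptor subunit *Grik4* (2.27 ± 0.37). *Afap1l2*, *Slc25a13*, *Ptprt*, *Il1rapl2*, *Sash1*, *Sox6*, *Lrmda* and *Sox5* followed with 1.88 to 2.25. Of these, *Sox2ot*, *Col11a1*, *Il1rapl2*, *Sox6*, *Lrmda*, *Sox5*, *Grik4* and *Slc25a13* were lower under the *Cadm1* label than under the *Chrm2* label. Another cell type was higher than *Nxph1*+ nuclei for *Sox2ot*, *Grik4*, *Afap1l2*, *Slc25a13*, *Sash1*, *Sox6*, *Lrmda* and *Sox5*. *Sox2ot* was at 1748 CPM in oligodendrocytes against 158 CPM, and *Sox6* at 691 CPM in velate astrocytes against 56.1 CPM. *Sox5* was at 1292 CPM in Purkinje cells against 87.2 CPM. The remaining genes were highest in *Nxph1*+ nuclei, *Cdh22* by the least. The source of this RNA was not tested.

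**Figure D3:**
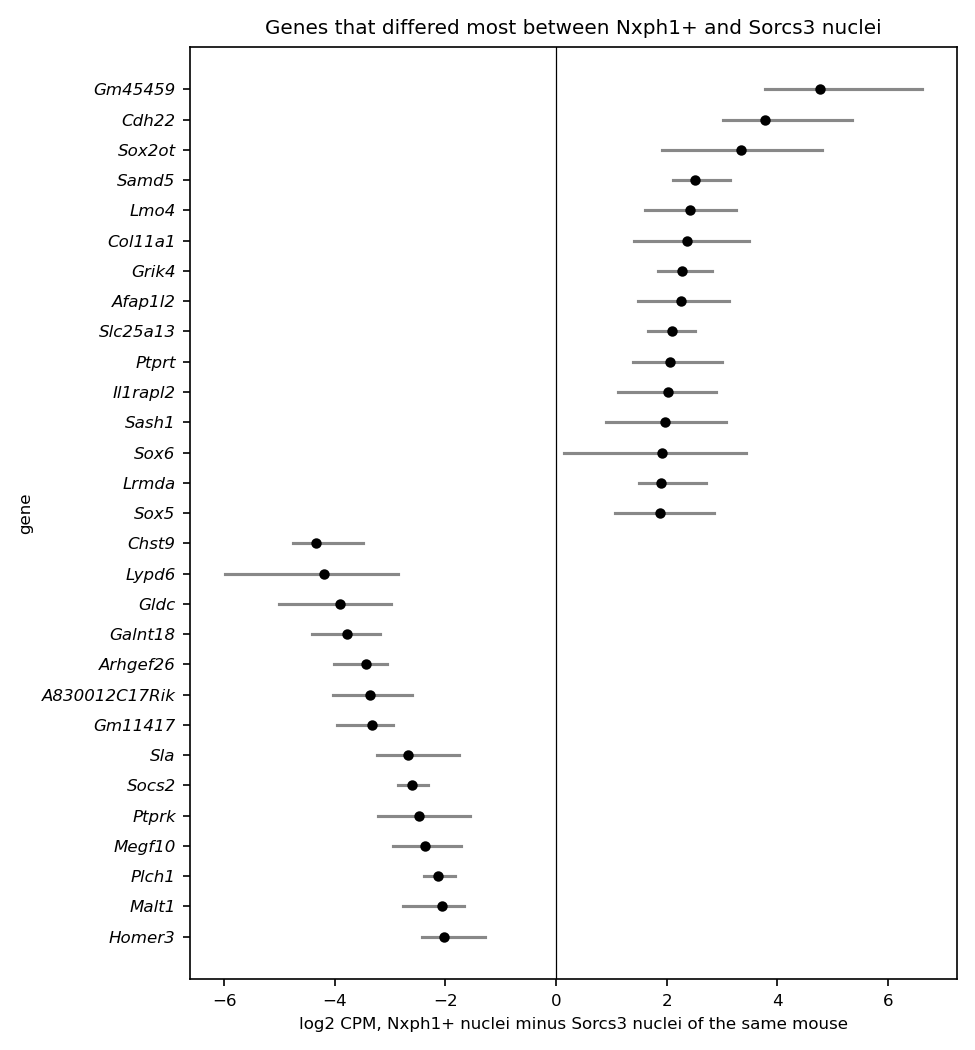
Log2 CPM in Nxph1+ nuclei minus that in Sorcs3 nuclei of the same mouse (horizontal axis, with 2 counts added) for the named genes with the largest differences in each direction; points are means over 6 mice and lines run from the lowest to the highest mouse. Each line lies on one side of 0, from 4.77 for Gm45459 to -4.34 for Chst9.

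*Sorcs3* nuclei in turn had more of *Chst9*, a sulfotransferase, with 197, 394 and 410 CPM in SCA1 and 179, 275 and 330 CPM in WT mice against 9.67 to 15.4 CPM in *Nxph1*+ nuclei. The mean difference was -4.34 ± 0.45. *Lypd6*, which binds nicotinic receptors, had -4.20 ± 1.04, *Gldc*, an enzyme of glycine breakdown, -3.91 ± 0.70, *Galnt18* -3.77 ± 0.55 and *Arhgef26* -3.44 ± 0.36. *Socs2*, a suppressor of cytokine signalling, had -2.61 ± 0.22 and *Ptprk*, a receptor phosphatase, -2.47 ± 0.72. *A830012C17Rik*, *Gm11417*, *Sla*, *Megf10*, *Plch1*, *Malt1* and *Homer3* were also among the 15 largest, from -3.37 to -2.03. *Lypd6* and *Ptprk* had been listed as markers of the first type.

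Lists of receptor, adhesion and channel genes were read against these shares of 14.1 and 8.98% over all genes, and no test of a list was made. Among 24 glutamate receptor genes at 10 CPM or more, 7 were higher in *Nxph1*+ nuclei in all mice and 6 were lower (median difference 0.00, against 0.03 over all genes). *Grid1* had -1.67 and *Grm8* -1.83, whereas the NMDA receptor subunits *Grin2b* and *Grin3a* had 1.23 and 1.53 and *Grm5* 0.63. *Grm5* was at 127 CPM in *Kit*-high nuclei and at 1393 CPM in the other nuclei, against 633 CPM in *Sorcs3* nuclei, so that only the other nuclei were higher. Of 20 cadherin and protocadherin genes, 9 were higher and 1, *Cdh12* (-1.33), was lower, and *Cdh20* (1.52) and *Pcdh15* (1.01) were among the higher ones. *Pcdh15* came mainly from the other nuclei, with 164 CPM in *Kit*-high nuclei and 1202 CPM in the rest, while *Cdh20* did not separate them (183 and 149 CPM).

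Among 28 potassium channel genes, 8 were higher in *Nxph1*+ nuclei in all mice, with *Kcnc1* (1.21) and *Kcnd3* (0.82) the largest, and 5 were lower, with *Kcnip4* at -0.94. Among 23 sodium, HCN and calcium channel genes, 7 were higher, led by *Cacna2d2* (1.49), an auxiliary calcium channel subunit, and 5 were lower, led by *Cacna1d* (-0.71) and *Fgf13* (-0.63). These were low in the other nuclei, with 478 and 273 CPM, whereas *Kit*-high nuclei had 1102 and 631 CPM, close to the 1164 and 647 CPM of *Sorcs3* nuclei. *Kcnd3* was at 993 CPM in *Kit*-high nuclei and at 244 CPM in the others, against 290 CPM in *Sorcs3* nuclei. *Erbb4*, the neuregulin receptor, was higher by 1.50, and the latrophilin *Adgrl3* and its ligand *Flrt2* were lower by 1.99 and 1.50 on the log2 scale. *Gjd2*, the neuronal gap junction protein connexin 36, was sparse in both kinds (4.00 and 10.4 CPM) and lower by 1.26. A *Gjd2* UMI was found in 5.92% of *Nxph1*+ and 11.3% of *Sorcs3* nuclei, against 1.03% of granule neurons.

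The number of *Nxph1*+ nuclei was then compared by genotype. Their share of all nuclei was 2.61, 1.51 and 1.80% for SCA1 mice 1, 2 and 3, against 2.01, 1.76 and 2.03% for the WT mice, with 95% binomial intervals (exact Clopper-Pearson, counting error only) between 1.24 and 2.92%. The groups overlapped, with SCA1 mice holding both the highest and the lowest value. The means were 1.97% ± 0.568 and 1.93% ± 0.150 (SD, n = 3, two-sided exact permutation p = 0.9). The difference was 0.599 percentage points in batch 1, with 1 mouse per genotype, and -0.238 in batch 2, so its sign was not the same within batches. Among *Sorcs3* and *Nxph1*+ nuclei together, *Nxph1*+ nuclei were 31.6% ± 4.38 in SCA1 and 33.2% ± 3.13 in WT mice (exact permutation p = 0.7), with differences of 6.24 and -5.45 percentage points in batches 1 and 2. With nuclei of at least 3000 UMIs the share of all nuclei was 2.07% ± 0.469 in SCA1 and 3.08% ± 1.74 in WT mice, with 5.09% in WT mouse 2, the shallowest library.

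No gene passed the threshold between SCA1 and WT in *Nxph1*+ nuclei. Over 12194 genes tested on sums per mouse, edgeR called 0 genes (0%), with a limit of 0.05 on the adjusted p, in a model with genotype and batch. At an unadjusted p under 0.05 there were 127 genes (1.04%). DESeq2 and limma-trend on the same sums also called 0. Without overlap of the mice, SCA1 was the higher group for 272 genes (2.23%) and the lower for 280 (2.3%), together 552 genes (4.53%). With 3 mice per genotype an exact permutation test cannot go below p = 0.1. Mice lying apart for a gene are thus no evidence of a difference on their own. A test on single nuclei, which treats nuclei of one mouse as independent, called 225 genes, of which 215 were tested on sums. None of these passed there (smallest edgeR adjusted p 1.00), and the mice did not overlap for 34.

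The genes of smallest p among those of at least 20 CPM whose mice lay apart are given with their values. None of them passed the threshold. Some genes outside this choice, such as *Cbln2* below, had a smaller p than some of them. *Pard3b*, a cell polarity gene on chromosome 1 (61638824 to 62642284), was at 31.6, 28.1 and 31.4 CPM in SCA1 mice 1, 2 and 3 and at 25.1, 9.31 and 6.99 CPM in WT mice. Its log2 fold change was 1.08 ± 0.35 (SE; edgeR unadjusted p = 0.0130, adjusted p = 1.00). The WT mouse of batch 1 lay close to the SCA1 mice, and the gene was too low to be tested in *Kit*-high nuclei. *Nyap2*, a PI3 kinase adaptor of neurons, was at 162, 173 and 191 CPM against 122, 113 and 143 CPM, with a log2 fold change of 0.47 ± 0.18 in all *Nxph1*+ nuclei and of 0.18 in *Kit*-high nuclei. *Slc35f4* was at 149, 116 and 147 CPM against 114, 73.2 and 97.0 CPM (0.53 ± 0.20). It had 1.06 in *Kit*-high nuclei and 0.16 and -0.15 in *Sorcs3* nuclei and granule neurons. *Mri1*, an enzyme of methionine salvage, had 0.61, *Kiz*, a centrosomal protein, 0.66, *Rnf138*, a ubiquitin ligase, 0.44, *Sertad2* 0.63 and *Zfp983* 0.54. These kept a positive sign in *Kit*-high nuclei for *Mri1* (0.55), *Kiz* (0.41), *Rnf138* (0.39) and *Zfp983* (0.55), whereas *Sertad2* was at 0.00 there.

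On the other side, *Ifnar2*, a subunit of the type I interferon receptor on chromosome 16 (91372783 to 91405589), was at 23.1, 19.7 and 15.1 CPM in SCA1 mice and at 39.6, 27.9 and 32.3 CPM in WT mice. Its log2 fold change was -0.80 ± 0.22 (edgeR unadjusted p = 0.00567, adjusted p = 1.00), with -0.34 in *Kit*-high nuclei and -0.39 and -0.06 in *Sorcs3* nuclei and granule neurons. *Neurod2*, a basic helix-loop-helix transcription factor, was at 40.4, 35.8 and 32.8 CPM against 59.7, 75.8 and 45.4 CPM (-0.71 ± 0.23), with -0.45 in *Kit*-high nuclei and -0.36 and -0.21 in *Sorcs3* nuclei and granule neurons. *Sema3e*, a secreted semaphorin, was at 34.5, 31.6 and 43.4 CPM against 46.4, 67.9 and 60.3 CPM (-0.63 ± 0.20), with -0.36 in *Kit*-high nuclei and 0.14 in *Sorcs3* nuclei. *Sbk1*, a kinase, had -0.55 and *Tada1*, a subunit of the SAGA coactivator, -0.62, with -0.60 for each in *Kit*-high nuclei. *Zmiz1os1*, an antisense transcript, had -0.77 and in *Kit*-high nuclei -0.43.

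The remaining genes of this side were *Lars2* and *Homer3*. *Lars2*, the mitochondrial leucyl-tRNA synthetase, was at 109, 124 and 78.8 CPM in SCA1 mice and at 160, 258 and 136 CPM in WT mice, and its log2 fold change of -0.81 ± 0.28 stood beside -0.64 in *Sorcs3* nuclei and -0.76 in granule neurons. *Homer3*, a scaffold of metabotropic glutamate receptors that is abundant in Purkinje cells, was at 15.9, 17.6 and 12.4 CPM against 40.1, 20.0 and 19.2 CPM (-0.84 ± 0.29), beside -0.29 and -0.72, and the value was -0.17 with the exclusion words matched literally. The 5 Purkinje markers were all negative in *Nxph1*+ nuclei, with *Car8* at -0.73, *Calb1* at -0.62, *Ppp1r17* at -0.59, *Itpr1* at -0.50 and *Pcp2* at -0.38. In granule neurons the same markers had -0.71, -0.52, -0.51, -0.71 and -0.39. None of these values passed the threshold in *Nxph1*+ nuclei, and the part of Purkinje cell RNA in them was not tested.

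**Figure D4:**
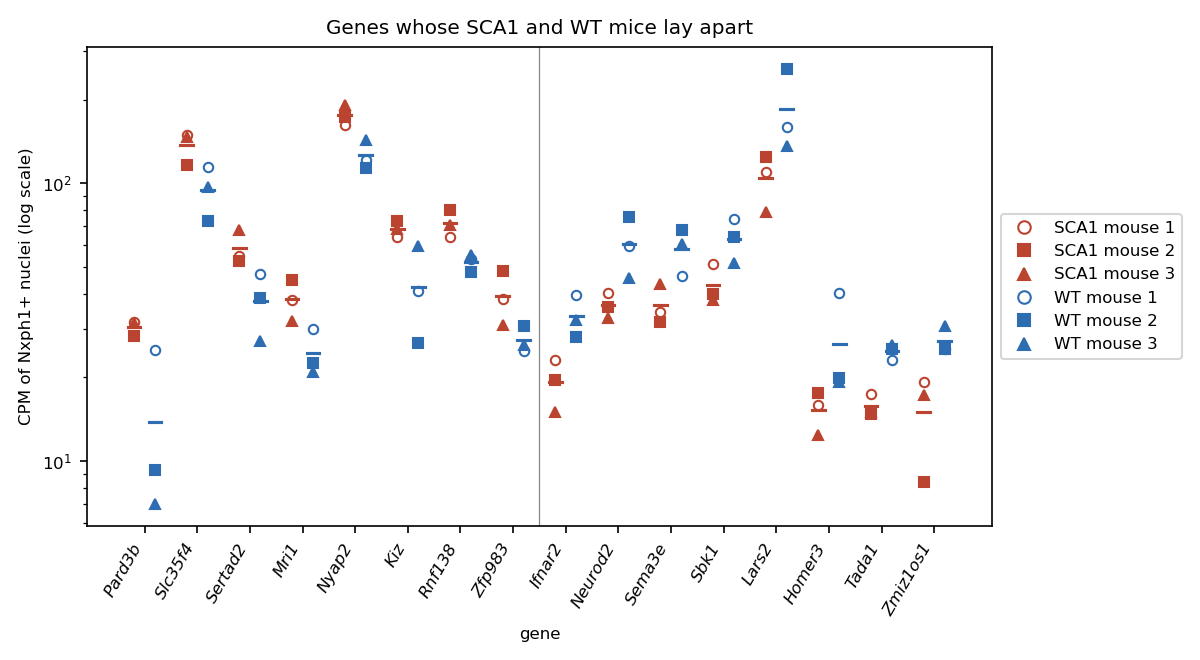
CPM (log scale) in the summed Nxph1+ nuclei of each mouse for the 8 genes of smallest p with SCA1 the higher group (left of the line) and the 8 with SCA1 the lower group, without overlap; bars are means of 3 mice, and open circles are the mice of batch 1. The gaps are narrow for most genes, as for Homer3, where SCA1 mouse 2 (17.6) lies close to WT mouse 3 (19.2), and no gene passed the threshold.

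The marker genes and the lists of neuronal genes were likewise not shown to differ. *Gad1* was at 178, 180 and 186 CPM in SCA1 and at 152, 196 and 186 CPM in WT mice, after scaling by TMM factors (log2 fold change 0.04 ± 0.17, edgeR adjusted p = 1.00). *Cdh22* was at 309, 296 and 270 CPM against 341, 342 and 386 CPM on this scale. The genotypes did not overlap, SCA1 being lower, with a log2 fold change of -0.29 ± 0.19 that did not pass (edgeR unadjusted p = 0.159, adjusted p = 1.00), and 0.17 in *Sorcs3* nuclei. *Kit* was at 212, 331 and 318 CPM against 216, 563 and 365 CPM (-0.35 ± 0.23). The share of *Kit*-high nuclei was 37.3, 59.6 and 50.4% in SCA1 mice and 39.0, 63.6 and 50.0% in WT mice, and its part in the *Kit* values was not tested. Mouse *Atxn1* was at 432, 414 and 541 CPM against 448, 385 and 536 CPM (0.02 ± 0.22).

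Across the lists 0 members passed in either direction, with a background of 0%, and the median log2 fold change over all genes tested was 0.00. Among 24 glutamate receptor genes tested, 13 were positive (median 0.03), and the mice lay apart for *Grin1* (SCA1 above, 0.16) and *Grin2d* (SCA1 below, -0.25), beside a share over all genes of 2.23% above and 2.3% below. *Grm7* had the smallest p of the list, at 810, 652 and 1016 CPM in SCA1 and at 711, 294 and 529 CPM in WT mice (0.74 ± 0.32, edgeR unadjusted p = 0.0483). *Gria1* followed with 0.45. *Grm7* was at 12.7 to 26.5 CPM in *Kit*-high nuclei. In the other nuclei alone it was at 1130, 1121 and 1401 CPM in SCA1 and at 987, 674 and 758 CPM in WT mice. These nuclei were grouped after the data were seen, and no test was made on them alone. The share of genes whose mice lay apart was not computed for them, and in all *Nxph1*+ nuclei the genotypes overlapped for *Grm7*. The 20 GABA and glycine receptor genes had a median of 0.08 and the 10 genes of GABA synthesis and uptake one of -0.06, with no gene whose mice lay apart. The closest in these lists were *Glra1* (0.55) and *Gabra2* (0.50), and *Slc6a9* (-0.27) and *Slc6a11* (0.39).

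The 29 potassium channel genes had a median of 0.02, with *Kcnip4* (0.79) and *Kcnt1* (-0.27) closest, and the 26 sodium, HCN and calcium channel genes one of 0.02, with *Cacna1h* (0.81) and *Cacna1d* (-0.33). Among adhesion genes, the 20 cadherins and protocadherins had a median of 0.02 (*Cdh8* 0.61, *Cdh18* 0.61), and the 24 latrophilin, teneurin and contactin genes one of 0.15 (*Cntnap5b* 0.67, *Cntnap3* 0.97). Of 20 neurexin ligands and partners, *Cbln2*, a secreted cerebellin, had the smallest p, at 5.00, 2.81 and 2.21 CPM against 9.53, 9.31 and 5.24 CPM (-1.17 ± 0.41, edgeR unadjusted p = 0.0196), levels near the limit of detection, and *Nlgn3* had -0.43. *Bdnf*, in the lists of growth factors and of immediate early genes, was at 13.8, 14.7 and 15.5 CPM against 17.5, 24.0 and 34.1 CPM (-0.71 ± 0.27), beside *Nrg1* at 0.63 and *Npas4* at -0.93.

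Among 30 transcription factors of interneurons, 19 were negative (median -0.08). *Neurod2*, above, and *Bcl11a* (0.89) had the smallest p, and *Prox1* (0.78) and *Meis2* (0.42) lay apart with SCA1 above and *Neurod2* with SCA1 below, beside the 2.23% and 2.3% over all genes. The 21 genes of calcium stores and pumps had 17 negative values and a median of -0.11, with *Itpr1* (-0.50) and *Ryr3* (0.61) closest. The 15 chaperone genes had a median of -0.10, with *Hspd1* (-0.45) and *Cct5* (-0.48), the 15 calcium-binding protein and neuropeptide genes -0.09, with *Calb1* and *Cnr1* (-0.37), the 6 genes of ataxin-1 and its partners -0.03, with *Rbm17* (-0.17) and *Atxn1l* (0.14), and the 4 gap junction genes -0.11, with *Gjc3* (-0.49) and *Gja1* (0.67). Leaving aside the short marker lists, the lowest medians were those of the lists for other cell types, -0.27 for 18 Purkinje genes, with *Rgs8* at -0.67 beside *Homer3*, and -0.17 for 12 granule neuron genes, with *Chn2* at -0.63 and *Fat2* at 0.42. Among short marker lists the medians were -0.59 for the 5 Purkinje markers, -0.31 for 4 markers of oligodendrocytes and precursors and -0.20 for the 7 markers of GABAergic interneurons, and 0.22 for 4 markers of Bergmann glia and astrocytes, 0.14 for 3 of unipolar brush cells and 0.11 for 3 of the first interneuron type. In these lists *Grm8* (0.42) and *Lypd6* (-0.33) of the first interneuron type, *Pvalb* (-0.56) beside *Kit* of GABAergic interneurons, *Edil3* (0.54) and *Klhl1* (-0.36) of Golgi and Purkinje layer interneurons, and *Otx2* (0.93) of unipolar brush cells had the smallest p. For glia these were *Slc1a3* (-1.0), *Aqp4* (0.50), *Pdgfra* (-0.66), *Mobp* (-0.32) and *Cx3cr1* (-0.29), for granule neurons *Fat2* and *Gabra6* (-0.26), and for the Y-linked genes *Uty* (0.14) and *Ddx3y* (-0.12).

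**Figure D5:**
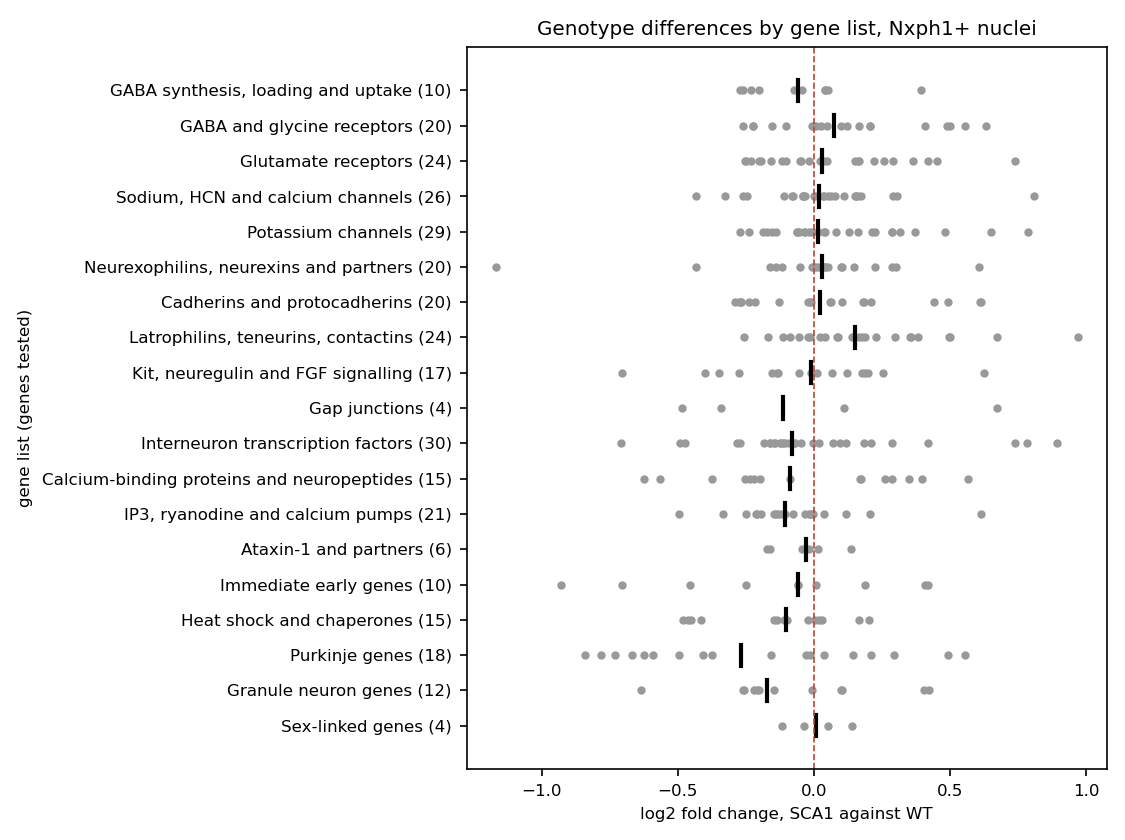
Log2 fold change, SCA1 against WT, of each tested gene (grey points) in Nxph1+ nuclei by gene list, with the list median (black bar) and the median over all genes tested (dashed line, 0.00). Short marker lists are not drawn. The medians run from -0.27 for Purkinje genes to 0.15 for latrophilins, teneurins and contactins, and no gene passed the threshold.

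Last, each gene's SCA1 against WT difference in *Nxph1*+ nuclei was compared with that in granule neurons and in *Sorcs3* nuclei of the same mice, as an interaction of genotype and cell type. edgeR called 0 of 16736 genes (0%) against granule neurons, with 271 at an unadjusted p under 0.05, and 0 of 13880 genes (0%) against *Sorcs3* nuclei, with 370. DESeq2 called 1 gene in each comparison. Against granule neurons this was *Mgat5b*, an N-acetylglucosaminyltransferase of the brain, which also had the smallest p in edgeR (3.19e-05, adjusted p = 0.534). *Mgat5b* had 427, 71 and 160 UMIs in *Nxph1*+ nuclei of SCA1 mice and 305, 53 and 86 in those of WT mice, a log2 fold change of -0.19 once depth is taken into account. Granule neurons had 1078, 375 and 620 UMIs against 499, 50 and 50, a log2 fold change of 1.85. The difference between the types was -1.93 ± 0.29. It was called without WT mouse 1 (-2.41, edgeR adjusted p = 0.00273) and in *Kit*-high nuclei, chosen after the data were seen, with an edgeR adjusted p of 0.0492. *March1*, a membrane-bound ubiquitin ligase, had -1.19 (0.46 in *Nxph1*+ nuclei and 1.74 in granule neurons), and *Gm28068* had -2.23. The gene called by DESeq2 against *Sorcs3* nuclei was *Fras1*, an extracellular matrix protein, with 1.10 in *Nxph1*+ nuclei, -1.70 in *Sorcs3* nuclei and a difference of 2.42 ± 0.40 (edgeR adjusted p = 0.554). It had 221, 51 and 78 UMIs in *Nxph1*+ nuclei of SCA1 mice and 171, 4 and 6 in those of WT mice, so that the WT mouse of batch 1 was not low. *Sorcs3* nuclei had 73, 12 and 18 *Fras1* UMIs in SCA1 and 228, 14 and 26 in WT mice. Without WT mouse 1 the *Fras1* difference was 3.87 and was called (edgeR adjusted p = 0.0269). *Gulp1*, an adaptor of engulfment, had a difference of 1.79 ± 0.33 (edgeR adjusted p = 0.668) and *C77080* one of 2.27 ± 0.48 (edgeR adjusted p = 1.00).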

How the data were processed

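Per the labels and the study's methods, reads were mapped by the authors (CellRanger, mm10 plus human *ATXN1*, introns counted) and debris was removed with DIEM (minimum 1000 UMIs, 3000 for the first run). The deposited values are UMI counts per gene and nucleus, not normalized, and a SingleR label per nucleus. The submitters' processing notes name Cell Ranger 4.0.0, 5.0.1 and 6.0.1 and Seurat 4.0.4.

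The nuclei and gene lists were chosen with earlier results of these data known. Counts were summed per mouse and tested with edgeR 4.0.16 (quasi-likelihood, TMM factors, filterByExpr with minimum count 10 and total 15, batch and genotype as terms, Benjamini-Hochberg adjustment over all genes tested). *Nxph1*, *Sorcs3* and *Eomes* were left untested. Levels are CPM, scaled by TMM in comparisons of genotype. Interactions had mouse as a term. Shares were compared by exact permutation tests. Alternatives used DESeq2 1.42.0, limma 3.58.1 and scran 1.30.0, and edgeR was tested on simulated data first.

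Genes named are the markers; for genotype, up to 8 per direction by smallest p among genes of at least 20 CPM whose mice lay apart; the 15 largest type differences per direction with the same sign in all mice at 50 CPM or more; the 15 leading genes; and in each list the 2 of smallest p. Others were named after their values were seen. Some genes that these rules select are not reported here.

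Same-numbered mice deviated together (correlations of 0.688, 0.270 and 0.612, each number best with its own), from the data and, for number 1, the shared batch, so a replicate block was run.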

Additional observations from a re-analysis of the deposited data

How the results depend on the processing

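The genotype calls stayed at 0 under DESeq2, RLE factors, library size only, limma-trend on sums, no batch term, a minimum of 4 UMIs, nuclei of at least 3000 UMIs and without nuclei with Golgi cell markers, and under 3 choices made after seeing the data (literal exclusion words, the 4 *Pvalb* labels, *Kit*-high labels). The replicate block changed no call (0 genes, 477 at an unadjusted p under 0.05), and for shares it gave 0.0412 (exact p = 1.00) and -1.56 points (exact p = 0.75). Without the filter on low counts 15 genes were called, and 21 and 55 in the interactions with granule neurons and *Sorcs3* nuclei. Of the 15 genes, 9 were also tested with the filter and did not pass there, so not all of these calls were genes that the filter removes. The test on nuclei called 225 genes, among them 7 of the 16 named genes. Leaving out 1 mouse gave 0 to 1 genes (*Gm34544* without SCA1 replicate 3, *Ttr* without WT replicate 1), 0 to 5 against granule neurons and 0 to 3 against *Sorcs3* nuclei, the latter 5 and 3 both without WT replicate 1. DESeq2 called 1 gene in each interaction, and *Kit*-high nuclei 1 against granule neurons. All 16 named genes kept their sign wherever they were tested. They were chosen as genes whose mice lay apart, so on the same mice a change of sign was hardly possible. The kept sign is therefore no support for a difference. Leaving out 1 mouse moved 4 of them by over 1.5 times. Without SCA1 replicate 1, and likewise without WT replicate 1, *Homer3* went from -0.84 to -0.40 and *Pard3b* from 1.08 to 1.89. Batch 1 held 1 mouse per genotype, so with batch as a term both of these fits rest on batch 2 alone. They are thus not separate checks. Without WT replicate 2 *Lars2* went from -0.81 to -0.48 and *Kiz* from 0.66 to 0.43. Values also moved that far for 3 genes without Golgi marker nuclei (*Ifnar2* -0.41, *Homer3* -0.53, *Nyap2* 0.30), for 8 of 15 in *Kit*-high nuclei, for *Nyap2* (0.09) in the 4 *Pvalb* labels, for *Rnf138* (0.28) and *Homer3* (-0.17) with literal words, and for all 16 in the test on nuclei, whose values are on another scale. The difference in the share of all nuclei, 0.0412 points, turned to -1.01 at 3000 UMIs or more, -1.0 after thinning, -0.0880 for the *Pvalb* labels and -0.0448 for *Kit*-high nuclei, and ran from -0.276 to 0.272 with 1 mouse left out. That among both interneuron kinds ran from -3.68 to 0.694 and was 0.672 with literal words. The cause was not tested. The smallest difference that 68 to 284 nuclei per mouse could show was not tested.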
